A study of Mus musculus with 12 samples.

Results

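The genes of the mitochondrial respiratory chain and ATP synthase were followed through 11 RNA-seq libraries of mouse bone marrow. They were chosen by symbol among the protein-coding genes of the GRCm38 annotation: symbols starting with Ndufa, Ndufb, Ndufc, Ndufs or Ndufv (assembly factors named Ndufaf left out), Sdha to Sdhd, Uqcr, Cox4 to Cox8 and Atp5, and every protein-coding symbol starting with mt-. This gave 95 of the 31060 genes of the count table, of which 82 are encoded in the nucleus and 13 on the mitochondrial chromosome. By symbol, complex I holds 38 nuclear and 7 mitochondrial genes, complex II 4 nuclear genes, complex III 8 and 1, complex IV 15 and 3, and complex V (ATP synthase) 17 and 2. Ndufa4 stands under complex I by its symbol, although its product is known as a subunit of complex IV. The rule also reaches Cox7b2, Cox8b and Cox8c, which were not analysed here. After the filter on low counts 80 nuclear and 13 mitochondrial genes were tested among 15630 genes, while Cox7a1 (0 to 10 counts per library) and Ndufa4l2 (0 to 2 counts) were not.

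The libraries came from lineage-negative cells, the marrow that remains once cells with surface markers of mature blood lineages are removed, of C57BL/6 mice of 4 genotypes. WT and Tet2+/- had 3 libraries each, Ins2Akita/+ had 2, and the double mutant Tet2+/-;Ins2Akita/+ had 3. Tet2 encodes an enzyme that oxidises methylated cytosine in DNA and is often mutated in clonal blood cell growth, and Tet2+/- mice have a single intact copy. The Akita allele of Ins2 encodes a proinsulin that misfolds in pancreatic beta cells, so that its carriers become diabetic while their blood cells do not make insulin. No age, sex or number of mice was found in the labels, nor whether a library is 1 mouse or a pool, and the p-values here thus speak of the scatter among libraries, part of which may be technical. In bulk RNA, fewer cells of a type and less RNA per cell cannot be told apart.

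Complexes I and II take electrons from NADH and succinate, complex III passes them to cytochrome c, and complex IV, cytochrome c oxidase, hands them to oxygen, while complex V makes ATP from the proton gradient this builds. All complexes except complex II combine subunits made in the cytosol with subunits made inside the mitochondrion, so their assembly draws on both genomes. Blood stem cells are known for a low reliance on respiration.

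Total counts per library ran from 14814409 to 22600405. Tet2, in CPM (counts relative to the scaled library size), was 91.2, 128 and 45.1 in the libraries labelled WT, 18.96, 18.5 and 19.3 in those labelled Tet2+/-, 131 and 107 in Ins2Akita/+, and 66.5, 108 and 34.2 in the double mutant. The Tet2+/- libraries lay below all others, while the double mutant, which carries the same allele by its label, overlapped WT, so directions below are between libraries with those labels. The libraries numbered 3 stood apart in WT, Tet2+/- and the double mutant, and results are given with and without them. Summed over 14 red cell marker genes the level was 5656 CPM in WT library 3 and 9658 CPM in Tet2+/- library 3, against 759 to 3511 CPM in the other 9. The 10 globin genes did not stand out in these 2 libraries, at 0.0443% and 0.0984% of counts, beside 0.0122% to 0.102% in the other 9. Over 5 genes of neutrophil primary granules, these 2 libraries had 1508 and 604 CPM and the other 9 had 7281 to 13584 CPM. Double mutant library 3 was the highest for 5 basophil and mast cell genes, at 5519 CPM against 560.0 to 2981 CPM elsewhere. The 9 genes of maturing neutrophils summed to 44329.6 to 67934 CPM in the double mutant and 2000.3 to 29668 CPM elsewhere, and every gene of these lists had a count in every library.

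Within the mitochondrial set, 5 genes were nearly without counts: mt-Co2 had 1 to 20 counts per library, mt-Co3 8 to 81, mt-Nd3 8 to 73, mt-Atp6 12 to 142 and mt-Nd4l 49 to 558. By contrast mt-Co1 had 74488 to 559171 counts and mt-Atp8, whose gene lies between mt-Co2 and mt-Atp6, 8576 to 101871. Each of the 5 has a copy on chromosome 1 at over 99% identity along about 99% or more of its transcript, within 24611535 to 24616197 of GRCm38: Gm28661 for mt-Co2, Gm28437 for mt-Co3, Gm28438 for mt-Nd3, Gm10925 for mt-Atp6 and Gm10222 for mt-Nd4l. The copies themselves held at most 31 counts in any library. For mt-Nd4 and mt-Co1 such a copy covers 63.6% and 31.3% of the transcript, and both had high counts. How the authors' counting treated reads that match both places was not found in the labels or notes, so the levels of these genes are uncertain. Another low gene, mt-Nd6, which is read from the other strand of the chromosome (83 to 406 counts), has its nearest copy, Gm11408, at 93.6% identity, and the strand setting is likewise not given.

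The sequences below show how close these copies are, since the counts of at least 7 of the 13 mitochondrial genes can depend on them. Copies were looked for among annotated transcripts only. None was found in the stretch of chromosome 1 between Gm10925 (ending at 24614651) and Gm28661 (starting at 24614885). A copy of mt-Atp8 there could not be looked for. For mt-Co2 bases 6 to 65 of the transcript are printed (chrM:7018-7077, GRCm38, plus strand), with the copy Gm28661 on chromosome 1 and a more distant copy, Gm13341, on chromosome 2. Capitals mark the positions at which the more distant copy differs from mt-Co2, C25T and G57A counted from 1 at the 5′ end of mt-Co2, and Gm28661 carries the mt-Co2 base at both. The whole of mt-Atp8 (chrM:7766-7969, plus strand) follows, with capitals on the last 43 bases, the stretch shared with Gm10925.
mt-Co2: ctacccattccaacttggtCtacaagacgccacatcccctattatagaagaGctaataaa
Gm28661: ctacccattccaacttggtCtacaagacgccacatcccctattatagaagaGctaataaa
Gm13341: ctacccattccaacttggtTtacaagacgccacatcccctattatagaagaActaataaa
mt-Atp8: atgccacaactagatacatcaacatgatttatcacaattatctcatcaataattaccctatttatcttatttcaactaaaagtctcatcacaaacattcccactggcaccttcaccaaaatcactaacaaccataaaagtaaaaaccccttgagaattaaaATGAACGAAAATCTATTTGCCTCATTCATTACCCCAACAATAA
Along the printed stretch mt-Co2 and Gm28661 have the same letters, so a read inside it matches both. For mt-Nd3 the copy Gm28438 differs from the transcript in 1 substitution, T3C.

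Levels per kilobase were divided by the length of a gene's annotated exons, merged over its transcripts. On this scale the RNAs of the mitochondrial chromosome included the highest of the respiratory chain. Merged exons can be far longer than 1 transcript (6883 bases for Ndufab1, beside a transcript of 452), so nuclear levels per kb can be understated. Averaged over libraries, mt-Atp8, a small ATP synthase subunit, reached 8048 CPM per kb, mt-Co1, the catalytic subunit of cytochrome c oxidase, 5981 CPM per kb, mt-Cytb, the core of complex III, 4833 CPM per kb, and mt-Nd1, a membrane subunit of complex I, 3578 CPM per kb. The mt-Atp8 value divides by only 204 bases, and the gene overlaps mt-Atp6, which starts at base 7927. Its rank may therefore depend on how reads were counted. The nuclear genes with the highest levels were Atp5a1 and Atp5b, which encode the alpha and beta subunits of the ATP synthase head, at 291 and 271 CPM per kb, and Cox8a at 231 CPM per kb. Median nuclear levels per kb were 34.5 CPM for complex I, 46.2 CPM for complex II, 80.8 CPM for complex III, 75.9 CPM for complex IV and 69.9 CPM for complex V. At the lower end, the untested Ndufa4l2 and Cox7a1 had 0.0281 and 0.500 CPM per kb. Of the tested genes, Atp5s had 2.17, Cox4i2 0.601 and Cox6a2 8.14 CPM per kb.

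Of all counts, the nuclear genes took 0.831%, 0.769% and 1.28% in WT, 0.825%, 1.02% and 1.43% in Tet2+/-, 0.746% and 0.777% in Ins2Akita/+, and 0.740%, 0.737% and 0.973% in the double mutant. The group means were 0.961% ± 0.281 (SD, n = 3) in WT, 1.09% ± 0.308 (n = 3) in Tet2+/-, 0.762% ± 0.0216 (n = 2) in Ins2Akita/+ and 0.817% ± 0.135 (n = 3) in the double mutant. Both Ins2Akita/+ libraries lay within the range of libraries 1 and 2 elsewhere, and the highest of each other genotype was library 3. The mitochondrial genes took 1.61%, 1.52% and 2.95% in WT, 1.17%, 1.38% and 3.96% in Tet2+/-, 1.47% and 1.69% in Ins2Akita/+, and 1.26%, 1.23% and 8.63% in the double mutant. Their means were 2.03% ± 0.803, 2.17% ± 1.55, 1.58% ± 0.149 and 3.71% ± 4.27 in the same order, and the high double mutant mean rests on 1 library. As a ratio to nuclear counts, the mitochondrial genes stood at 1.36 to 2.17 in the libraries numbered 1 and 2, at 2.30 and 2.77 in library 3 of WT and Tet2+/-, and at 8.87 in library 3 of the double mutant. Their ratio to the mitochondrial ribosomal RNAs was 4.95 to 7.99 over all libraries and 7.64 in double mutant library 3.

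**Figure D1:**
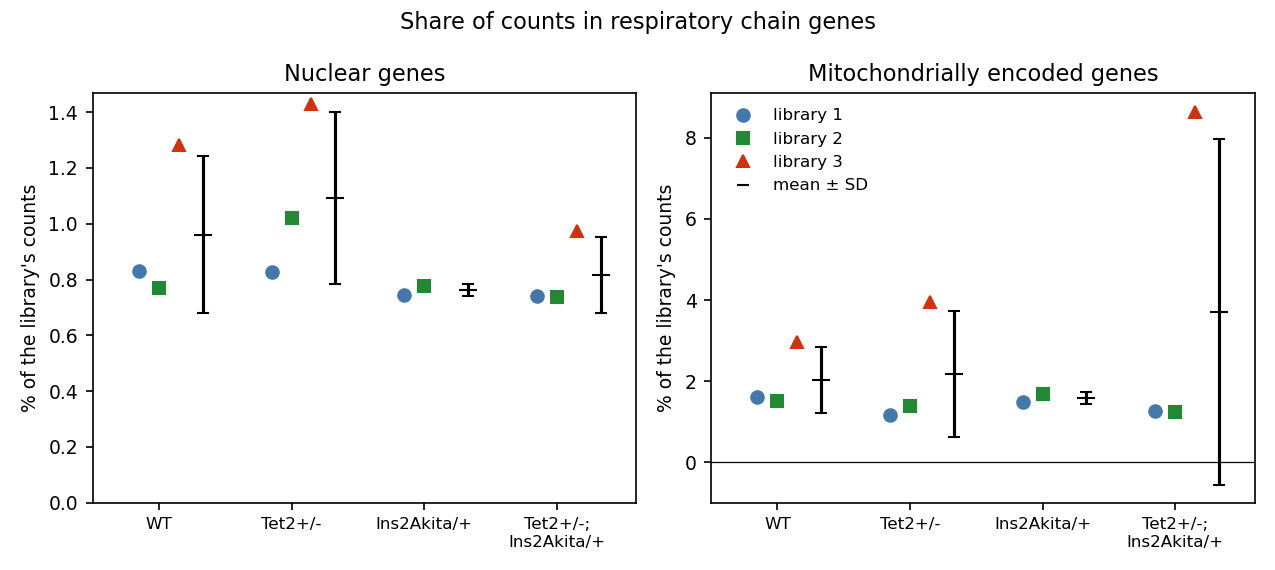
Share of each library's counts, in percent, that fell on the 82 nuclear (left) and 13 mitochondrially encoded (right) respiratory chain genes, by genotype; points are libraries, marked by number, and the black bar is the mean ± SD. Double mutant library 3 stands at 8.63% for the mitochondrial genes, while its libraries 1 and 2 stand at 1.26% and 1.23%.

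Most nuclear genes stood higher in library 3 than in libraries 1 and 2 of the same genotype. For each gene the log2 CPM (with 0.1 added) of library 3 was set against the mean of libraries 1 and 2, as a description with 1 library on one side and no test. The median nuclear difference was 0.51 in WT, 0.59 in Tet2+/- and 0.46 in the double mutant, and 70 of 80 genes were above 0 in all 3, against 31.6% of all genes tested, whose medians were 0.02, 0.02 and 0.01. All 17 genes of complex V and all 4 of complex II were above 0 throughout, as were 32 of 37 of complex I, 7 of 8 of complex III and 10 of 14 of complex IV. For the mitochondrial genes the medians were 0.83, 1.55 and 2.77, and 12 of 13 were above 0 in all 3. The red cell and granule marker sums given above moved in the same libraries of WT and Tet2+/-, while the globin share there stayed within the range of the others. There the maturing neutrophil list was low too, at 2000.3 and 2773 CPM against 15284 to 67934 CPM in the other 9, as was the sum of the monocyte and macrophage list, at 217 and 117 CPM against 401 to 893 CPM. By the median log2 deviation of that list's genes, Tet2+/- library 3 was at -1.70. WT library 3 was at -0.324 on that scale, beside -0.314 in Ins2Akita/+ library 2 and -0.321 in double mutant library 3. In double mutant library 3 the basophil and mast cell sum was high, as were the megakaryocyte and platelet list, at 465 CPM against 122 to 258 CPM elsewhere, and the stem and progenitor list, at 427 CPM against 192 to 327 CPM. The part of these cells in the pattern was not tested. The nuclear RNAs Malat1 and Neat1 together ranged from 0.0905% to 0.109% of counts in library 3 of the 3 genotypes. They took 0.102% in Tet2+/- library 2 and 0.187% to 0.240% in the other libraries numbered 1 and 2. Their part was not tested either.

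Among nuclear genes, Cox6b2, the testis form of a cytochrome c oxidase subunit, differed most: its level was 20.1, 11.7 and 57.7 CPM in WT, 14.6, 20.8 and 76.5 CPM in Tet2+/-, 12.03 and 20.7 CPM in Ins2Akita/+, and 18.9, 13.2 and 39.2 CPM in the double mutant. Library 3 was the highest of each genotype that has one, by 1.91, 2.13 and 1.30 on the log2 scale. The widespread isoform Cox6b1 was at 115, 105 and 165 CPM in WT, 111, 149.8 and 223 CPM in Tet2+/-, 108 and 99.1 CPM in Ins2Akita/+, and 106, 116 and 173 CPM in the double mutant, and its library 3 was above by 0.58, 0.79 and 0.64. In Uqcr11, a small subunit of complex III, these differences were 1.14, 1.41 and 0.95, and in Ndufs7, an iron-sulphur subunit of complex I, 1.10, 1.16 and 0.80. The 3 genes for the ring of the ATP synthase motor, which encode the same mature protein, were not alike: Atp5g1 stood at 1.11, 1.27 and 0.59, Atp5g3 at 0.70, 0.77 and 0.42 and Atp5g2 at 0.36, 0.04 and 0.46.

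A few nuclear genes went the other way in WT and Tet2+/-. Cox7a2l, which helps join complexes III and IV into supercomplexes, stood at 209.7, 181 and 157 CPM in WT, 188, 268 and 159 CPM in Tet2+/-, 176 and 163 CPM in Ins2Akita/+, and 164, 165 and 216 CPM in the double mutant. Its library 3 was the lowest in WT and in Tet2+/- and the highest in the double mutant, with differences of -0.31, -0.49 and 0.39. Those of Ndufv3, an accessory subunit at the NADH-binding end of complex I, were -0.42, -0.41 and 0.18, those of Ndufb11 -0.15, -0.25 and 0.28 and those of Ndufb7 -0.09, -0.11 and 0.30. Cox6a2, Cox4i2, Ndufa3 and Ndufa6 were below 0 in Tet2+/- alone, Cox8a in WT alone and Uqcrb in the double mutant alone.

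**Figure D2:**
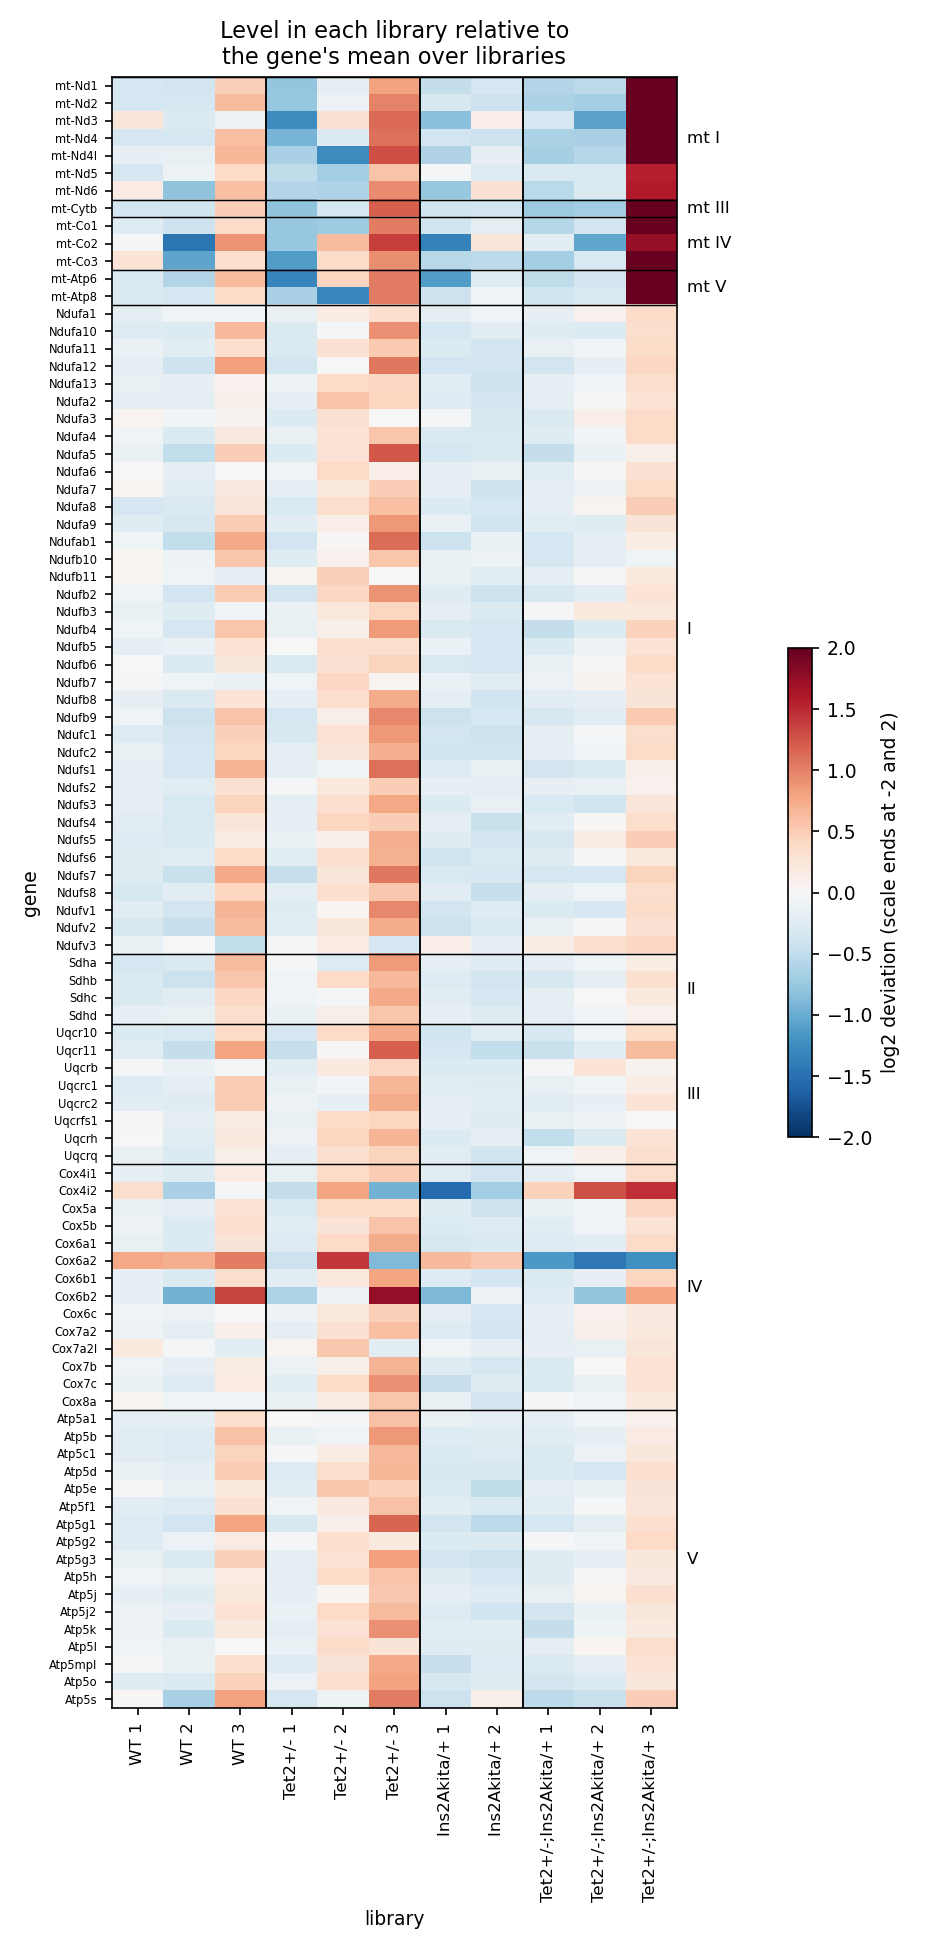
Level of each tested gene (rows, by genome and complex) in each library (columns, by genotype), as the log2 deviation from the gene's mean over the 11 libraries; red is higher and blue lower, and the colour scale ends at -2 and 2. The median nuclear deviation is 0.32, 0.63 and 0.28 in library 3 of WT, Tet2+/- and the double mutant, and the median mitochondrial deviation in double mutant library 3 is 2.29.

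**Figure D3:**
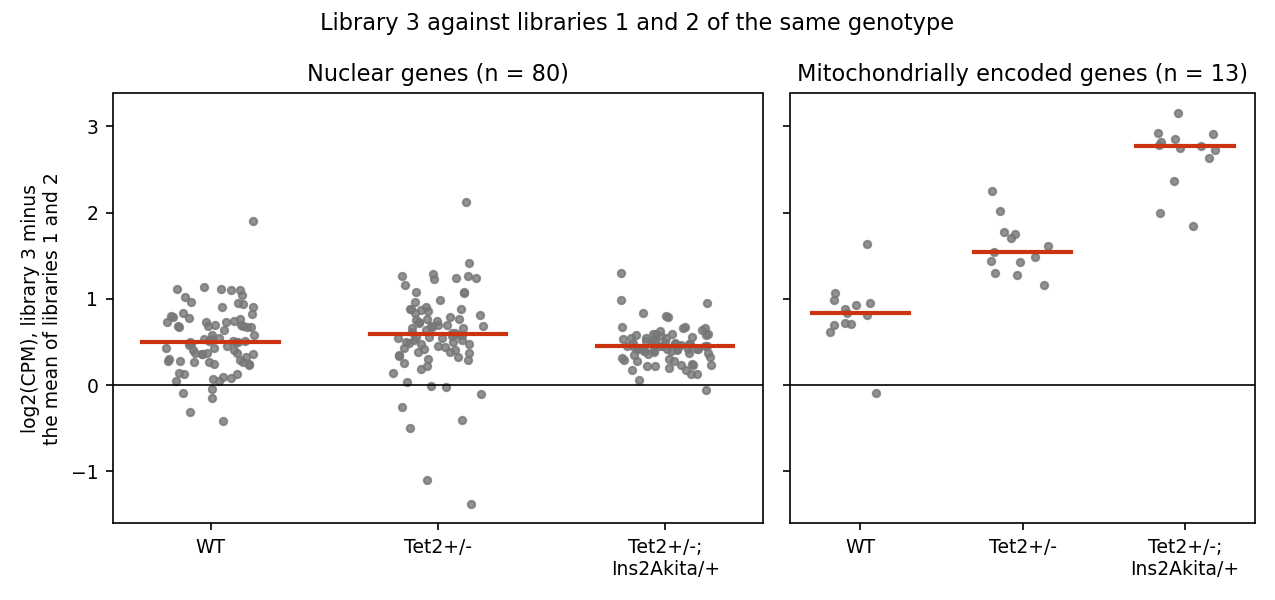
Difference of library 3 from the mean of libraries 1 and 2 of its own genotype in log2 CPM, for the 80 nuclear (left) and 13 mitochondrial (right) genes; each point is a gene and the red line is the median. The nuclear medians lie between 0.46 and 0.59, while the mitochondrial ones are 0.83, 1.55 and 2.77.

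The comparisons between genotypes used edgeR's quasi-likelihood test on all 15630 genes with Benjamini-Hochberg adjustment, and no respiratory chain gene passed an adjusted p of 0.05 in any of 6 comparisons. The share of all genes called was 0.0256% for Tet2+/- against WT, 0% for Ins2Akita/+ against WT, 0.0448% for the double mutant against WT, 0.262% for the double mutant against Tet2+/-, 0.0384% for the double mutant against Ins2Akita/+ and 0% for the interaction of the alleles. At an unadjusted p under 0.05 there were 0, 0, 2, 1, 2 and 1 respiratory chain genes, all of them Cox6a2, Cox4i2 or Ndufv3, against 332, 67, 1374, 1701, 1032 and 537 of all genes. Without the libraries numbered 3 no respiratory chain gene was called either, with 0.146%, 0%, 3.44%, 7.71%, 2.89% and 0.0464% of all genes called in the same order. With the library number as a block the count was again 0, with 0.0512%, 0%, 1.63%, 4.5%, 0.115% and 0.0192% of all genes called. DESeq2 called 1 respiratory chain gene, Cox6a2 in the double mutant against WT, with 0.288%, 0%, 2.61%, 3.44%, 1.21% and 0.384% of all genes called. The comparisons share libraries, so their values are given side by side only, and counts and medians over genes stand as a description.

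Tet2+/- against WT asks what goes with the loss of 1 Tet2 copy. In it, 78 of 80 nuclear genes were above 0, with a median log2 difference of 0.27 and a range from -0.46 to 0.55, beside a median of 0.03 and 55.2% above 0 for all genes. By complex, the medians were 0.26 for I, 0.24 for II, 0.27 for III, 0.29 for IV and 0.26 for V. No nuclear gene had all its Tet2+/- libraries above or below all WT libraries, which held for 2.07% (higher) and 2.18% (lower) of all genes. Between libraries of the same number, the nuclear median was -0.05 for number 1, 0.53 for number 2 and 0.31 for number 3. Leaving out Tet2+/- library 3 brought the median to 0.05, and leaving out WT library 3 to 0.47.

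Core subunits of the complexes overlapped between Tet2+/- and WT. Ndufs1, an iron-sulphur subunit of complex I, was at 84.01, 76.03 and 154 CPM in WT and 83.7, 90.3 and 206 CPM in Tet2+/-, a log2 difference of 0.28 (SE 0.38). Sdha, the flavoprotein of complex II, was at 163, 169.5 and 323 CPM in WT and 203, 175 and 374 CPM in Tet2+/-, a difference of 0.20 (SE 0.34). In Uqcrc1, a core protein of complex III, the level was 198, 207 and 335 CPM in WT and 212, 227 and 373 CPM in Tet2+/-, a difference of 0.14 (SE 0.28). All 3 differences were smaller than their standard errors, and library 3 was the highest of each group. Ndufa2, a complex I accessory subunit, had the smallest p of the nuclear genes, at 57.6, 57.4 and 70.8 CPM in WT and 58.5, 96.8 and 87.8 CPM in Tet2+/-, a difference of 0.39 (SE 0.23, edgeR adjusted p = 1). There Tet2+/- libraries 2 and 3 were above every WT library and library 1 was not.

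The 13 mitochondrial genes had a median of 0.17 in this comparison, with 12 above 0. Without the libraries numbered 3, 12 of them passed the filter, and 2 were above 0 with a median of -0.29, while the nuclear genes had a median of 0.25 with 79 of 80 above 0. The mitochondrial median thus changed sign with the libraries numbered 3, and the nuclear median did not. That nuclear median came from number 2: 29 of 80 genes were above 0 between libraries of number 1, and 80 between those of number 2. Tet2+/- library 2 had a median nuclear deviation from the mean of all libraries of 0.27, beside 0.28 to 0.63 in the libraries numbered 3. The remaining libraries stood at -0.30 to -0.09. The level of mt-Nd4, a proton-pumping subunit of complex I, was 1143, 1129.7 and 2191 CPM in WT and 755, 1202 and 3106 CPM in Tet2+/-, with the lowest and the highest value both in Tet2+/-. The level of mt-Atp8 was 1021, 984 and 1643 CPM in WT and 794, 509 and 2583 CPM in Tet2+/-, with the lowest in Tet2+/- library 2.

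Ins2Akita/+ against WT asks what goes with the diabetic background. In it, 79 of 80 nuclear genes and all 13 mitochondrial genes were below 0, with medians of -0.28 and -0.39 beside -0.01 for all genes. Of the nuclear genes, 25 had both Ins2Akita/+ libraries below every WT library and 0 above, against 6.86% and 4.78% of all genes, and mt-Nd4 and mt-Nd4l were below among the mitochondrial ones. Atp5b was at 948, 928 and 1660.0 CPM in WT and 921 and 934 CPM in Ins2Akita/+, a log2 difference of -0.35 (SE 0.37). Its WT libraries 1 and 2 lay beside the Ins2Akita/+ libraries and WT library 3 far above. Atp5e, a small subunit of the ATP synthase stalk, was at 121, 108 and 138 CPM in WT and 97.9 and 84.6 CPM in Ins2Akita/+, a difference of -0.42 (SE 0.27, edgeR adjusted p = 1). Cox5a, a structural subunit of complex IV, was at 102, 99.4 and 139 CPM in WT and 95.6 and 85.6 CPM in Ins2Akita/+, a difference of -0.33 (SE 0.28). Neither of the last 2 overlapped between the groups. Among the libraries used Ins2Akita/+ has none numbered 3 (a column with such a name matched no sample label and was not used), and without WT library 3 the medians were -0.10 and -0.03. Without all libraries of that number, 66 of 80 nuclear genes were below 0 with a median of -0.09. With the library number as a block the medians were -0.09 (nuclear) and 0.20 (mitochondrial).

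In the double mutant against WT the nuclear genes were spread around 0, with 39 of 80 above it and a median of -0.01, whose sign is not stable over alternatives. All 13 mitochondrial genes were above 0, with a median of 0.996 and a range from 0.49 to 1.2, beside a median of -0.05 for all genes. This difference rested on library 3 of the double mutant: without that library the median was -0.53, and without all libraries numbered 3 it was -0.23 with 0 of 12 above 0. With the library number as a block it was 0.45. The level of mt-Nd1 was 2147, 2077 and 3759 CPM in WT and 1803, 1869.8 and 13265 CPM in the double mutant, so libraries 1 and 2 of the double mutant lay below every WT library and library 3 above. Its log2 difference was 1.09 (SE 0.74, edgeR adjusted p = 0.792), and -0.53 without double mutant library 3. The level of mt-Co1 was 6034, 5427 and 9259.8 CPM in WT and 4878, 5519.5 and 35445 CPM in the double mutant, a difference of 1.15 (SE 0.77, edgeR adjusted p = 0.788). Here too library 3 of the double mutant was above every WT library, and library 1 below.

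The same library set the mitochondrial values of the other double mutant comparisons. Against Tet2+/-, 12 of 13 mitochondrial genes were above 0 with a median of 0.81, which became -0.84 without it, a value that sets libraries 1 and 2 of the double mutant against a group that still holds the high Tet2+/- library 3. Without all libraries numbered 3 this median was -0.09 with 5 of 12 above 0, and with the library number as a block 0.50 with 12 of 13 above 0. Against Ins2Akita/+, all 13 were above 0 with a median of 1.41, which became -0.23 without that library, -0.20 without all numbered 3 and 0.19 with the block. The interaction median of 1.23 became -0.31, 0.019 and 0.31 in the same order. In mt-Cytb the level was 3147, 3125 and 5788 CPM in WT, 2345, 3241 and 9424 CPM in Tet2+/-, 3119.7 and 3154 CPM in Ins2Akita/+, and 2484, 2549 and 22434 CPM in the double mutant. Library 3 was the highest in each genotype that has one. The level of mt-Nd5, a proton-pumping subunit of complex I, spread over a smaller range, at 1119.8, 1298 and 1855 CPM in WT, 988, 884 and 2085 CPM in Tet2+/-, 1367 and 1185 CPM in Ins2Akita/+, and 1158, 1146 and 4143 CPM in the double mutant. Its 2 lowest values were libraries 1 and 2 of Tet2+/-, and its highest was again double mutant library 3. In mt-Nd6 the level was 9.57, 4.83 and 13.1 CPM in WT, 5.64, 5.52 and 16.5 CPM in Tet2+/-, 5.02 and 10.6 CPM in Ins2Akita/+, and 5.86, 6.96 and 25.7 CPM in the double mutant, and the same library was the highest.

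Nuclear genes in the double mutant were mostly below Tet2+/-: 77 of 80 were below 0 with a median of -0.29, beside -0.08 for all genes. Without the libraries numbered 3 the count was 73 with a median of -0.20, and without Tet2+/- library 3 alone the median was -0.03. Between libraries of the same number the median was -0.04 for number 1, -0.34 for number 2 and -0.39 for number 3. Complex V had the lowest median of the complexes, -0.36. All 3 double mutant libraries were above every Tet2+/- library for 0 nuclear genes (8.48% of all genes). Uqcrh, the hinge protein of complex III, was at 155, 227 and 268 CPM in Tet2+/- and 119.8, 137 and 202 CPM in the double mutant, a log2 difference of -0.50 (SE 0.26, edgeR adjusted p = 0.523). Its double mutant library 3 lay among the Tet2+/- libraries and the other two below.

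Against Ins2Akita/+, 78 of 80 nuclear genes were above 0 with a median of 0.29, and 66 with a median of 0.12 without the libraries numbered 3. All 3 double mutant libraries were above both Ins2Akita/+ libraries for 40 of 80 nuclear genes, against 16.6% of all genes, and below them for 1, Cox6a2, against 19.9%. The level of Uqcrq, a subunit of complex III, was 66.8 and 59.5 CPM in Ins2Akita/+ and 73.7, 83.99 and 98 CPM in the double mutant, with no overlap and a log2 difference of 0.43 (SE 0.24, edgeR adjusted p = 0.850). For the interaction the nuclear median was 0.03 with 47 of 80 above 0, and -0.11 with 17 above 0 without the libraries numbered 3. With the library number as a block it was -0.16 with 12 above 0.

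**Figure D4:**
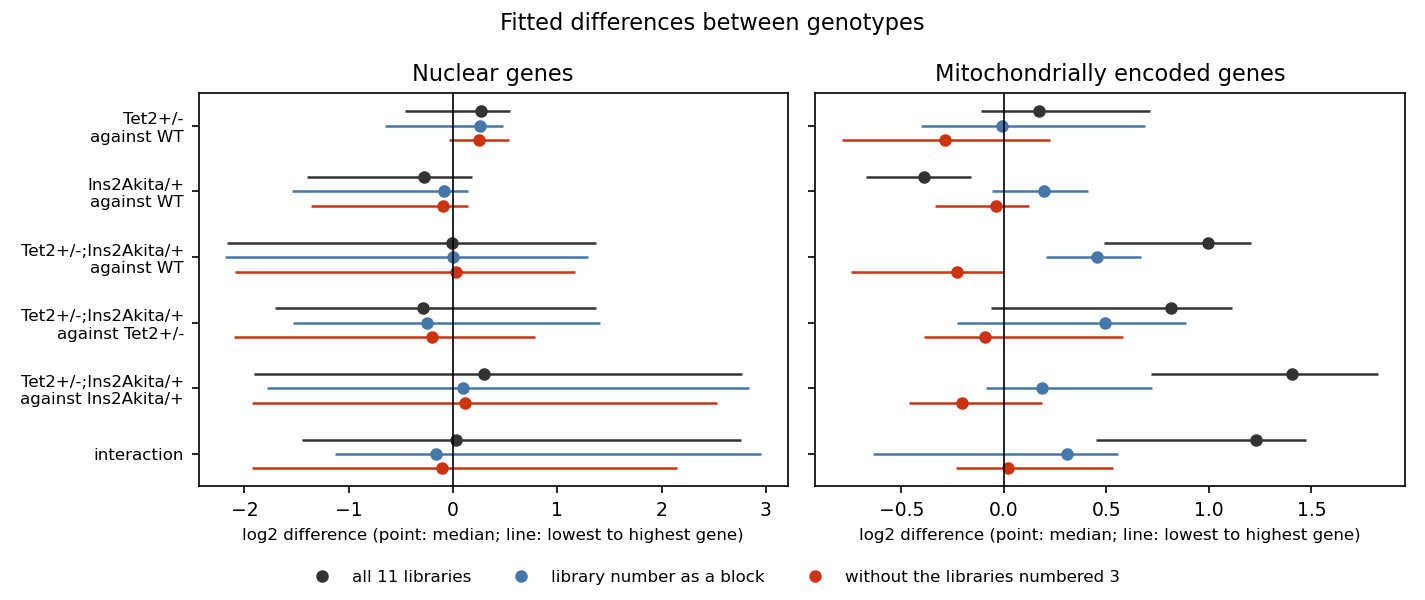
Log2 differences fitted for the nuclear (left) and mitochondrial (right) genes in the 6 comparisons; the point is the median over genes and the line runs from the lowest to the highest gene, with all libraries (black), with the library number as a block (blue) and without the libraries numbered 3 (red). The mitochondrial median of the double mutant against WT is 0.996 with all libraries and -0.23 without those numbered 3.

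The lowest fitted value of any nuclear gene in the double mutant against WT belonged to Cox6a2 (chromosome 7, 128205435 to 128206387, GRCm38), the heart and muscle isoform of a cytochrome c oxidase subunit. Its level was 7.71, 7.47 and 9.13 CPM in WT, 3.27, 12.05 and 2.37 CPM in Tet2+/-, 7.01 and 6.48 CPM in Ins2Akita/+, and 1.95, 1.59 and 1.84 CPM in the double mutant. The double mutant lay below all other libraries, and the Tet2+/- libraries were spread widely, with library 2 the highest of all. It was the 1 nuclear gene with every double mutant library below WT (8.57% of all genes) and below Tet2+/- (6.68%). The log2 difference was -2.17 (SE 0.55, edgeR adjusted p = 0.215) against WT, -1.71 (SE 0.55, edgeR adjusted p = 0.269) against Tet2+/- and -1.91 (SE 0.59, edgeR adjusted p = 0.513) against Ins2Akita/+. Against WT, Cox6a2 fell by DESeq2 (-2.15, adjusted p = 0.0103) and by edgeR's test without Tet2+/- library 2 (-2.17, adjusted p = 0.0381, 0.0708% of all genes called). Over the other alternatives run its adjusted p, by edgeR or limma, was 0.0704 to 0.592, with a difference of -2.24 to -2.07. The liver isoform Cox6a1 was far more abundant, at 107, 97.6 and 142 CPM in WT and 98.3, 101 and 154 CPM in the double mutant, where the groups overlapped, with a difference of 0.03 (SE 0.29).

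Of the cell type marker lists, only those of B lineage and dendritic cells also had every double mutant sum below every other library. Over 7 B lineage genes the double mutant libraries summed to 58.8, 46.9 and 65.99 CPM and the others to 126 to 281 CPM. The 7 dendritic cell genes summed to 227, 217 and 217 CPM in the double mutant and 365 to 719.6 CPM elsewhere. Tet2+/- library 2, which had the highest Cox6a2, was also the highest for both lists. Tet2+/- libraries 1 and 3, which had low Cox6a2, had 184 and 155 CPM for the B lineage list (126 to 167 CPM in WT). For the dendritic list they had 509 and 377 CPM (416 to 635 CPM in WT), so library 3 lay below every WT library there. Each gene of the lists had a count in every library, and the part of these cells in the Cox6a2 value was not tested.

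Cox4i2, the lung isoform of the regulatory subunit of cytochrome c oxidase, was higher in the double mutant at very low counts. It had 10, 4 and 6 counts in WT, 5, 12 and 3 counts in Tet2+/-, 1 and 4 counts in Ins2Akita/+, and 11, 21 and 19 counts in the double mutant, and in CPM the double mutant libraries were above every WT and Ins2Akita/+ library. Cox4i2, Ndufb3 and Ndufv3 were the 3 nuclear genes with every double mutant library above WT (9.55% of all genes). For Cox4i2 the edgeR adjusted p was 0.606 against WT and 0.495 against Ins2Akita/+. Cox4i1, the widespread isoform, was at 266, 251 and 333 CPM in WT, 269.8, 393 and 424 CPM in Tet2+/-, 255 and 229 CPM in Ins2Akita/+, and 259, 282 and 379 CPM in the double mutant. It overlapped between WT and the double mutant, with a log2 difference of 0.11 (SE 0.24). Ndufv3 was at 61.95, 67.7 and 48.3 CPM in WT, 66.2, 75.8 and 53.3 CPM in Tet2+/-, 74.4 and 60.7 CPM in Ins2Akita/+, and 75.3, 84.9 and 90.6 CPM in the double mutant. Its double mutant libraries were above every other library except Tet2+/- library 2, which lay between them, and the difference from WT was 0.49 (SE 0.21, edgeR adjusted p = 0.505). Ndufb3, an accessory subunit of complex I, was at 26.1, 24.4 and 27.8 CPM in WT and 28.2, 33.3 and 33.5 CPM in the double mutant, a difference of 0.28 (SE 0.20).

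**Figure D5:**
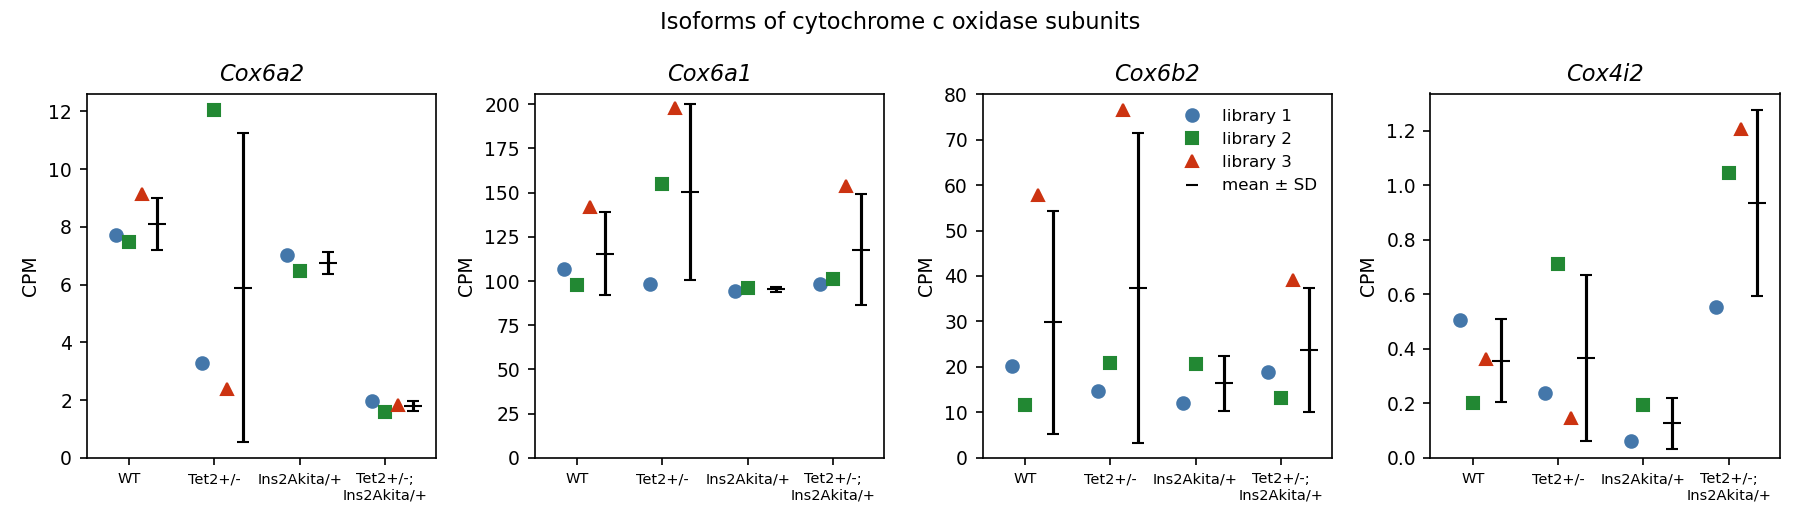
CPM per library of Cox6a2 (muscle isoform), Cox6a1 (liver isoform), Cox6b2 (testis isoform) and Cox4i2 (lung isoform), by genotype; points are libraries marked by number and the black bar is the mean ± SD. The 3 double mutant libraries stand at 1.59 to 1.95 CPM for Cox6a2, below all others, and library 3 is the highest of its genotype for Cox6b2.

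Other genes of the pathway were read from 5 lists, none of which had a gene called by edgeR in any of the 6 comparisons. In Tet2+/- against WT the median log2 difference was 0.23 for 78 mitochondrial ribosome genes, 0.23 for 13 electron carriers and exchangers, 0.16 for 47 assembly factors, 0.06 for 32 genes that express and keep the mitochondrial genome and 0.05 for 11 regulators of mitochondrial biogenesis. In Ins2Akita/+ against WT these medians were -0.26, -0.24, -0.25, -0.29 and 0.09. In the double mutant against WT they were -0.09, -0.04, -0.09, -0.25 and -0.12, beside -0.05 for all genes. All lists except the regulators had medians of the same sign as the nuclear respiratory chain genes in the first 2 of these comparisons. In the last, the nuclear median of -0.01 changed sign with the alternative, at 0.022 with RLE factors and 0.031 without the libraries numbered 3. In library 3 against libraries 1 and 2, the ribosome medians were 0.60, 0.79 and 0.38 in WT, Tet2+/- and the double mutant, while the regulators were at -0.04, -0.08 and -0.31.

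Tfam, which packs mitochondrial DNA and starts its transcription, was at 57.8, 47.9 and 57.8 CPM in WT, 46.4, 71.98 and 64.2 CPM in Tet2+/-, 43.8 and 54.3 CPM in Ins2Akita/+, and 38.99, 32.97 and 37.1 CPM in the double mutant. The double mutant lay below every other library, with a log2 difference of -0.58 (SE 0.21, edgeR adjusted p = 0.401) from WT and -0.74 (SE 0.21, edgeR adjusted p = 0.210) from Tet2+/-. Esrra, a nuclear receptor that acts on genes of oxidative metabolism, was at 26.4, 25.7 and 25.3 CPM in WT, 25.5, 27.2 and 23.5 CPM in Tet2+/-, 25.9 and 22.7 CPM in Ins2Akita/+, and 34.6, 41.4 and 34.2 CPM in the double mutant. All 3 double mutant libraries were above all others, with a difference of 0.51 (SE 0.17, edgeR adjusted p = 0.372) from WT. Of all genes, 8.57% had every double mutant library below WT and 9.55% above it. These shares were 6.68% and 8.48% against Tet2+/-, and 19.9% and 16.6% against Ins2Akita/+. Tfam and Esrra had the smallest edgeR p of their lists in the double mutant against WT. Of the 11 regulators, 9 were below 0 in that comparison.

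Promoters were examined for letters that the nuclear genes may have in common. RefSeq windows from 250 bases before to 50 after a start site (GRCm38.p6) were found for 65 of the 82 nuclear genes. A motif of NRF1, a factor known for nuclear genes of mitochondrial proteins, was in the windows of 5 of them, Atp5g2, Atp5k, Cox6a1, Ndufa11 and Uqcrc1, 7.69% against 1.07% of 27025 genes. This motif is the run of capitals in the sequences below and is its own reverse complement. The YY1 motif, searched on both strands, was in 4, Ndufa9, Ndufs4, Ndufs6 and Ndufs7, 6.15% against 0.755%. The ETS motif ACTTCCGG, also on both strands, was in 5, Atp5h, Cox8a, Ndufs3, Uqcr11 and Uqcrh, 7.69% against 4.31%. No gene was found with more than 1 of these motifs. The 250 bases before the start site are printed for Cox6a1 (chr5:115348959-115349208, minus strand) and Ndufa11 (chr17:56717512-56717761, plus strand), a complex IV and a complex I gene with the NRF1 motif in capitals.
Cox6a1: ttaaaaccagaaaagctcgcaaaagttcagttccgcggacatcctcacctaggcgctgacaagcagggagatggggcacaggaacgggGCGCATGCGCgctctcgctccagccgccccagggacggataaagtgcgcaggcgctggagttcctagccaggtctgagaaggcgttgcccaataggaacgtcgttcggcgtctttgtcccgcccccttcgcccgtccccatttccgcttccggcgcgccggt
Ndufa11: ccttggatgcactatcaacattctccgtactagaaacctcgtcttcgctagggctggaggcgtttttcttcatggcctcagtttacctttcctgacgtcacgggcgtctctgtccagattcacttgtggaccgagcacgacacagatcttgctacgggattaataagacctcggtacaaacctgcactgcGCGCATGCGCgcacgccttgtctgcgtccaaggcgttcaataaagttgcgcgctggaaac
The motif starts 162 bases before the start site in Cox6a1 and 60 bases before it in Ndufa11. A match describes letters and not binding, and whether genes with a motif differ in level between libraries was not tested.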

How the data were processed

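The authors deposited raw counts of reads per gene (whole numbers, no normalization, from the values). Trimmomatic 0.32, TopHat2 2.1.1, bcl2fastq and build GRCm38 are named per the submitters' processing notes. What counted the reads, on which annotation release and with which strand setting, is not given in the sources used here. Values are therefore uncertain for the 38 nuclear genes of the set that overlap another gene, and for near-identical copies: 14 nuclear genes have a copy at 98% identity or more over at least 25% of the transcript, and 7 mitochondrial genes have one at 99%. Copies were looked for among annotated transcripts only. Of 12 labelled samples 11 were used, the double mutant sample with number 4 is not analysed here, and 1 column, named as an Ins2Akita/+ library numbered 3, matched no label and was left out. Gene identifiers were matched to GENCODE vM21 (69 of the 95 including their version).

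From the counts, edgeR 4.0.16 in R 4.3.3 gave TMM factors, CPM, the filterByExpr filter (15630 genes) and a robust quasi-likelihood fit of all 4 groups; a call is a Benjamini-Hochberg adjusted p under 0.05, and an SE is the log2 difference divided by the square root of F. The fit was run on simulated counts with planted differences in a group. These held no shift of the libraries numbered 3, so that run cannot tell how the fit handles such a shift. Alternatives were RLE factors, library sizes without mitochondrial genes, DESeq2 1.42.0, limma 3.58.1 voom, no filter, a mean of at least 5 CPM, a replicate block, a fit without the robust option, the compared groups alone, each library left out, and all libraries numbered 3 left out; leaving out genes with a copy was chosen after seeing the data. Members and lists were chosen with earlier results of these data known. Named genes are the mitochondrial ones, those called in any fit, the 3 with the smallest p per comparison and genome, tissue isoforms, listed core subunits, the highest and lowest level per complex, and Tet2. Outside this rule, Cox7a2l, Uqcr11, Ndufb7, Ndufa3, Ndufa6, Uqcrb, Tfam, Esrra and the genes named only for a motif or a copy were named after their values were seen.

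The labels number the libraries without saying why. The correlation of deviations from the group mean, between libraries sharing a number, was 0.485 to 0.791 for WT and Tet2+/-, 0.340 to 0.589 for WT and the double mutant and 0.318 to 0.533 for Tet2+/- and the double mutant, which meets the rule set for pairing (every pair over 0.1). Libraries 1 and 2 with different numbers correlated as well, at 0.211 to 0.691 over these groups, so the table sets library 3 apart and does not tie 1 to 1 or 2 to 2. Ins2Akita/+ did not meet the rule (-0.351 and 0.0661 with WT). Libraries of 1 group differed by far more than sampling noise (chi-square per gene at least 17.2).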

Additional observations from a re-analysis of the deposited data

How the results depend on the processing

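Depth limits genes with few counts, such as Cox4i2 (1 to 21 per library). By edgeR with all libraries no respiratory chain gene was called; 1 was called in the double mutant against WT by DESeq2 and, leaving out 1 library at a time, 0 to 1 (Cox6a2, without Tet2+/- library 2). The replicate block, which takes library numbers as pairing although these mainly set library 3 apart, changed no call of these genes. The mitochondrial median was -0.23, -0.20 and 0.019 without the libraries numbered 3 (double mutant against WT and Ins2Akita/+, and interaction), and 0.19 with the replicate block for the double mutant against Ins2Akita/+. Without double mutant library 3, mt-Nd1 was at -0.53 against WT and -0.65 against Tet2+/-, and over all libraries left out in turn it reached 1.51 in both. Leaving out mitochondrial genes with a nuclear copy put their mean share at 1.13% in WT, 1.21% in Tet2+/-, 0.866% in Ins2Akita/+ and 2.02% in the double mutant. With 1 library left out in turn, mitochondrial medians ran from -0.53 to 0.47 (Tet2+/- against WT), -0.54 to -0.03 (Ins2Akita/+ against WT), -0.53 to 1.42, -0.84 to 1.4 and -0.23 to 1.82 (double mutant against WT, Tet2+/- and Ins2Akita/+) and -0.31 to 1.97 (interaction), and nuclear medians from 0.05 to 0.47, -0.39 to -0.10, -0.15 to 0.21, -0.43 to -0.03, 0.12 to 0.41 and -0.19 to 0.26. Of all genes, 4 were called in Tet2+/- against WT (45 by DESeq2, 8 with the block, 22 without number 3, 2 with the compared groups alone, 1 to 7 with a library left out); 7 in the double mutant against WT (408, 255 and 519 in that order, 13 by limma, 52 with no filter, 1 to 49); 41 against Tet2+/- (538, 703 and 1163, 86 with no filter, 8 with a mean of at least 5 CPM, 0 with the groups alone, 0 to 66); 6 against Ins2Akita/+ (189, 18 and 436, 3 by limma and with that mean, 20 with no filter, 1 with the groups alone, 0 to 11); and 0 for the interaction (60, 3 and 7, 3 with no filter). The cause of these differences was not tested.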

Other observations

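Genes of the mitochondrial chromosome other than the protein genes were nearly all ribosomal RNA. The 16S gene mt-Rnr2 had 23820 to 105165 counts and the 12S gene mt-Rnr1 15423 to 88394 counts per library, both highest in double mutant library 3, and the transfer RNA genes in the table had 0 to 11 counts. The share of mt-Rnr1 and mt-Rnr2 together was 0.191% to 0.495% of counts in 10 libraries and 1.13% in double mutant library 3, whose 10 highest genes took 14.6% of its counts against 5.15% to 8.89% elsewhere. Those 10 genes include mt-Co1 (559171 counts), mt-Cytb (353922) and mt-Nd1 (209272), so this share is not separate from that of the mitochondrial genes.

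Among annotated near-identical copies of nuclear respiratory chain genes, BC002163, a copy of Ndufs5 at 99.3% identity over 78.3% of the transcript, had 113 counts in Tet2+/- library 2 and 0 to 2 counts in the other 10 libraries. The other copies of nuclear genes that had a row in the table held 0 to 7 counts per library.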
